A study of Rattus norvegicus with 9 samples.

Results

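Steroid-producing cells of the adrenal cortex make their hormones from cholesterol, and 8 genes that store, take up, release and carry that cholesterol, or that equip the cell to sense ACTH, were followed here. They were Star, Scarb1, Lipe, Soat1, Stard3, Tspo, Plin2 and Mrap. Every probe set whose only gene symbol was 1 of these names was used, which gave 13 of the 31042 probe sets that were not array controls. All 13 lay among the 18625 probe sets bright enough to be tested. Star, Scarb1, Lipe, Soat1 and Plin2 had 2 probe sets each, called the brighter and the dimmer below, and the others had 1.

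Cholesterol reaches a steroid-producing cell mainly as the ester cargo of lipoproteins, and in rodents the receptor encoded by Scarb1 takes it from high-density lipoprotein. Esters are kept in lipid droplets, which are coated by perilipins such as the product of Plin2. They are formed by sterol O-acyltransferase (Soat1) and opened by hormone-sensitive lipase (Lipe). The free sterol then has to cross to the inner mitochondrial membrane, where the side-chain cleavage enzyme Cyp11a1 turns it into pregnenolone. The protein encoded by Star carries out this transfer, which is the regulated and rate-limiting step of acute steroid secretion.

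The cells were dispersed from the zona glomerulosa, the outermost layer of the rat adrenal cortex and the source of aldosterone. They were kept for 2 h at 37 °C in DMEM:F12 medium with 0.5% fatty-acid-free albumin under 5% CO2, either without stimulus (control), with angiotensin II (Ang II, 100 nM) or with potassium at 16 mM. Each of 3 independent cell preparations supplied 1 tube per condition, so each group held 3 arrays, and arrays of 1 preparation are compared with each other. The labels name no strain, sex or age, and give neither the potassium level of the control medium nor how many animals were in a preparation.

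On each of the 9 Affymetrix Rat Genome 230 2.0 arrays a probe set has 1 linear signal, scaled so that the trimmed mean lay between 500.17 and 500.19. Array medians lay between 128.0 and 172.9, the highest on the control array of preparation 2. Differences below are log2 fold changes on the log2(signal + 16) scale with their standard error (SE), and "rose" or "fell" means an adjusted p below 0.05. By this rule 409 probe sets changed after Ang II and 998 after potassium. Scaling every array to the median of all probe sets moved the median change of all tested probe sets after Ang II from -0.03 to 0.09 and after potassium from -0.02 to 0.10. That scaling turned the split of higher and lower calls from 310 and 99 to 431 and 33 after Ang II, and from 518 and 480 to 722 and 177 after potassium. Of the zona glomerulosa markers, Dab2 (10728 to 14486 over the 9 arrays), Wnt4 (4049 to 5872) and Agtr1b (2302 to 3734) had clear signals, while Shh (16.6 to 285) and Kcnk9 (28.3 to 195) were dim, and Cyp11b2 was not analysed here. Markers of fasciculata (Akr1b7, 27524 to 29964), endothelium (Kdr, 6875 to 8654), fibroblasts (Dcn, 4899 to 6654) and red blood cells (Hbb, 15618 to 20314) were also present. Other markers of the last 3 lists were dim, such as Vwf (17.7 to 128), Gli1 (38.5 to 167) and Slc4a1 (34.5 to 168). The adrenal medulla markers Th and Chgb had signals of 585 to 954 and 523 to 807. Of 48 tested markers in 8 cell type lists, 1 changed after Ang II (Wnt4, -0.32 ± 0.07) and none after potassium in limma's test, where 3 and 11 had an unadjusted p below 0.05. Of all tested probe sets 2.2% and 5.36% changed, and 2694 of 18625 had an unadjusted p below 0.05 after Ang II. After potassium, 2557 had one in a fit without the preparation term, and 3125 in a fit with no trend of the variance. In such mixed RNA, a change in the number of cells of 1 type and a change in RNA per cell cannot be told apart.

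After Ang II, 6 of the 13 probe sets rose and none fell, in 4 genes: Star, Scarb1, Plin2 and Mrap. Over all tested probe sets 1.66% rose and 0.532% fell. After potassium 5 probe sets rose, in Star, Scarb1 and Mrap, against 2.78% of all tested, and 1 fell, in Plin2, against 2.58% of all tested. The median change of the 13 was 0.22 after Ang II and 0.27 after potassium. Set directly against each other, the stimuli differed in 2 probe sets, both of Plin2 and both higher after Ang II, where 4.79% of all tested probe sets differed, 3.09% higher and 1.7% lower after Ang II. Lipe, Soat1, Stard3 and Tspo passed the test in no comparison. With no trend of the variance on signal level in limma's fit, none of the 13 passed after Ang II (6 had an unadjusted p below 0.05), 1 after potassium and 2 in the direct comparison. In that fit 2364 of all 18625 tested probe sets had an unadjusted p below 0.05 after Ang II. Since the comparisons with control use the same 3 control arrays, their values are not independent of each other.

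**Figure D1:**
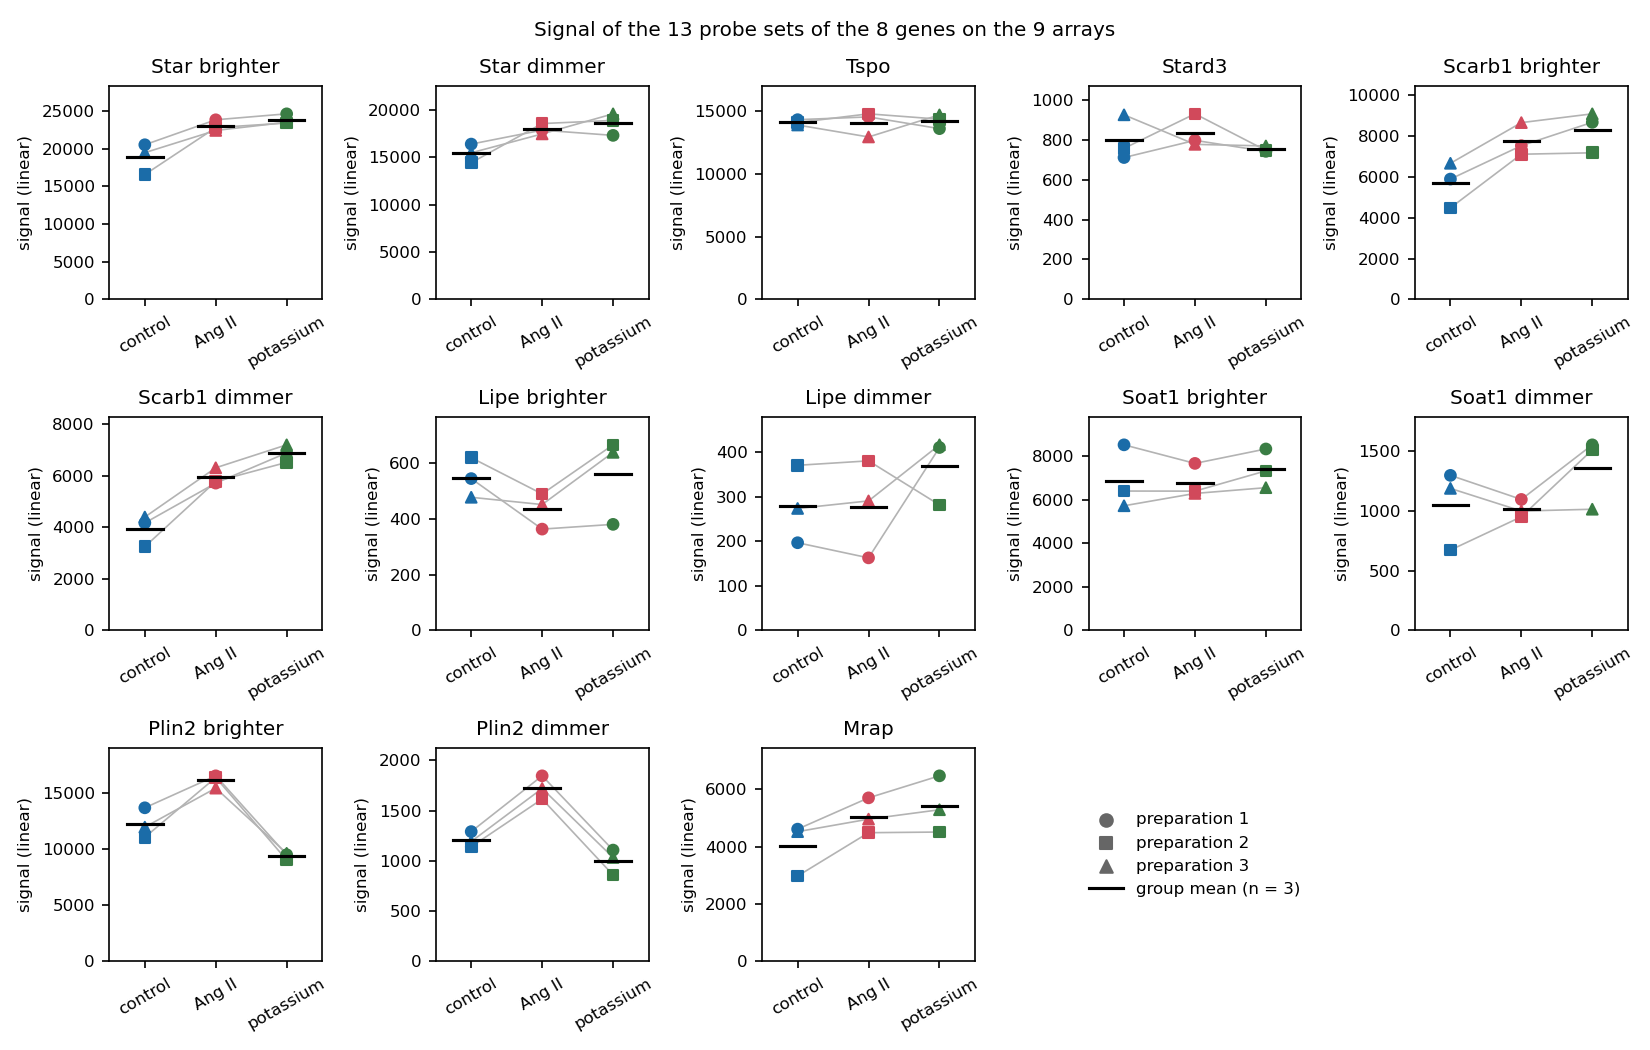
Linear signal (vertical axes, each from 0) of the 13 probe sets in control, Ang II and potassium tubes, with 1 symbol per preparation, grey lines joining tubes of 1 preparation and bars at the group means (n = 3). Star and Scarb1 signals lie above control under both stimuli, whereas both Plin2 probe sets lie above control after Ang II and below it after potassium.

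Star encodes the steroidogenic acute regulatory protein, which moves cholesterol from the outer to the inner mitochondrial membrane. Its brighter probe set (1368406_at) had signals of 20542, 16584 and 19492 in the control tubes of preparations 1, 2 and 3. They were 23859, 22825 and 22441 after Ang II, and 24650, 23429 and 23527 after potassium. Every stimulated tube lay above every control tube, and the stimulated groups overlapped each other. Without overlap, 7.3% of all tested probe sets were higher and 7.75% lower after Ang II, and 7.84% were higher after potassium. Star rose 1.23-fold after Ang II, by 0.29 ± 0.06 (adjusted p = 0.024), and 1.27-fold after potassium, by 0.34 ± 0.06 (adjusted p = 0.0042). Within preparations the difference after Ang II was 0.22, 0.46 and 0.20, and the difference after potassium 0.26, 0.50 and 0.27. The largest was in preparation 2, whose control signal was the lowest, and that control signal is part of both differences. Preparation 2 also had the largest differences at both Scarb1 probe sets and at Mrap, but not at the dimmer Plin2 probe set after Ang II.

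The dimmer probe set of Star (1387174_a_at) gave smaller changes. Its control signals were 16375, 14407 and 15455, against 17846, 18539 and 17448 after Ang II and 17293, 18874 and 19565 after potassium. Again no stimulated tube overlapped a control tube. The change of 0.22 ± 0.07 after Ang II missed the threshold (adjusted p = 0.12), while after potassium the probe set rose by 0.27 ± 0.07 (adjusted p = 0.031). With the preparation means subtracted, the probe sets correlated at r = 0.94 over the 9 arrays, which share preparation and scaling. The mean of both probe sets in a fit over 10399 genes, an alternative chosen after seeing the data, rose by 0.26 ± 0.06 after Ang II (adjusted p = 0.049) and by 0.31 ± 0.06 after potassium (adjusted p = 0.01).

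The Ang II call of Star stood close to the threshold. The brighter probe set no longer passed without control replicate 2 (0.21, adjusted p = 0.07), without Ang II replicate 1, 2 or 3 (adjusted p = 0.1, 0.16 and 0.061) or without preparation 1, 2 or 3 (adjusted p = 0.16, 0.13 and 0.075), nor without the replicate block (adjusted p = 0.11), without the filter on dim probe sets (0.096), when scaled to the median of all probe sets (0.42, adjusted p = 0.096) or with only the groups compared in the fit (0.085). After potassium the brighter probe set lost its call without preparation 1 (0.38, adjusted p = 0.051). The dimmer one lost it without control replicates 2 or 3, Ang II replicate 1, potassium replicates 2 or 3 or any 1 preparation, with adjusted p-values from 0.051 to 0.19. It also lost it without the replicate block (0.064), without the filter on dim probe sets (0.091), scaled to the median of all probe sets (0.079) and with only the groups compared in the fit (0.061), and held it in 10 of the 23 alternative settings. The direction was upward under every setting tried for both probe sets. Ang II and potassium were not told apart at Star, with a direct difference of -0.05 and a 95% interval of -0.19 to 0.08 at the brighter probe set. The highest signals of the arrays lay between 33568 and 42803, and whether saturation compressed the changes of Star was not tested.

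Tspo encodes the translocator protein of the outer mitochondrial membrane, long studied in steroid-producing cells for binding cholesterol. Its signal hardly moved between conditions. Control signals were 14304, 14078 and 13879, Ang II signals 14525, 14769 and 12928, and potassium signals 13590, 14342 and 14685. The groups overlapped fully. Differences from control were -0.00 ± 0.06 after Ang II (95% interval -0.14 to 0.13) and 0.01 ± 0.06 after potassium (95% interval -0.13 to 0.15), so that a change of the size of Star's was outside both intervals.

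Stard3, whose product is a late endosomal protein with a cholesterol-binding START domain like that of Star, had signals of 711 to 925 in control tubes, 777 to 930 after Ang II and 742 to 769 after potassium. Its change was 0.07 ± 0.11 after Ang II (95% interval -0.17 to 0.31) and -0.07 ± 0.11 after potassium (-0.32 to 0.17). Neither passed the test, and each sign changed under some settings.

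Scarb1 encodes scavenger receptor class B type 1, the high-density lipoprotein receptor. Among the 13 probe sets its dimmer one had the largest increase under each stimulus, and both of its probe sets rose under both stimuli. The brighter probe set (1386956_at) had control signals of 5886, 4477 and 6657, Ang II signals of 7519, 7101 and 8647, and potassium signals of 8662, 7171 and 9077. The dimmer one (1367855_at) had control signals of 4167, 3247 and 4396, Ang II signals of 5712, 5779 and 6307, and potassium signals of 6883, 6517 and 7197. In neither did a stimulated tube overlap a control tube. At the dimmer probe set every potassium tube also lay above every Ang II tube, as was so for 9.06% of all tested probe sets.

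The brighter Scarb1 probe set rose 1.38-fold after Ang II, by 0.46 ± 0.07 (adjusted p = 0.0018), and 1.47-fold after potassium, by 0.56 ± 0.07 (adjusted p = 1.7e-04). The dimmer rose 1.52-fold, by 0.60 ± 0.08 (adjusted p = 3.4e-04), and 1.75-fold, by 0.81 ± 0.08 (adjusted p = 7.7e-06). The increase was present in all 3 preparations, from 0.45 to 0.83 after Ang II and from 0.71 to 1.00 after potassium at the dimmer probe set. The probe sets ran together over the arrays (r = 0.99 with preparation means subtracted, n = 9). Ang II against potassium gave -0.10 ± 0.07 and -0.21 ± 0.08 (adjusted p = 0.57 and 0.16), so the larger potassium response did not pass the test. The calls held without any 1 array or preparation. Without the replicate block the Ang II call of the brighter probe set ended (adjusted p = 0.15).

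Mrap encodes the melanocortin 2 receptor accessory protein, which the ACTH receptor needs to reach the cell surface and to bind ACTH. Its 1 probe set (1379491_at) had control signals of 4614, 2979 and 4526, Ang II signals of 5706, 4490 and 4963, and potassium signals of 6474, 4513 and 5291. The groups overlapped, because preparation 2 was lowest under every condition, but in each preparation both stimulated tubes exceeded their own control. Mrap rose 1.27-fold after Ang II, by 0.34 ± 0.08 (adjusted p = 0.043), and 1.35-fold after potassium, by 0.44 ± 0.08 (adjusted p = 0.005). Both calls rest on the pairing by preparation: without the replicate block the adjusted p was 0.49 and 0.21. The Ang II call also ended without control replicates 1 or 2 (adjusted p = 0.14 and 0.21), without Ang II replicates 1, 2 or 3 (0.12, 0.26 and 0.073), without potassium replicate 1 (0.068) and without preparations 1 or 2 (0.24 and 0.28). It ended too without the filter on dim probe sets (0.073) and with only the groups compared (0.077). The potassium call ended without preparation 1 (adjusted p = 0.1).

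Plin2 encodes perilipin 2, the coat protein of the lipid droplets in which cholesterol esters lie, and it was the gene on which the stimuli went apart. Its brighter probe set (1390383_at) had control signals of 13659, 11035 and 11937. They were 16501, 16352 and 15407 after Ang II, and 9487, 9018 and 9610 after potassium. The 3 groups did not overlap, with Ang II highest and potassium lowest in every preparation. The dimmer probe set (1382680_at) gave the same order, with 1292, 1141 and 1193 in control, 1847, 1616 and 1721 after Ang II, and 1108, 860 and 1034 after potassium. Among all tested probe sets 9.78% lay wholly below control after potassium, and 9.72% lay wholly higher after Ang II than after potassium.

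Plin2 rose after Ang II 1.32-fold at the brighter probe set, by 0.40 ± 0.07 (adjusted p = 0.0037), and 1.42-fold at the dimmer, by 0.51 ± 0.09 (adjusted p = 0.0038). After potassium the brighter probe set fell 1.30-fold, with a change of -0.38 ± 0.07 (adjusted p = 0.0034), and the dimmer had a change of -0.27 ± 0.09 that missed the threshold (adjusted p = 0.081). Tested directly, Ang II exceeded potassium 1.72-fold at both, by 0.78 ± 0.07 (adjusted p = 6.0e-06) and 0.78 ± 0.09 (adjusted p = 5.1e-05), in all 3 preparations. The direct difference kept its call under all 23 alternative settings, with values from 0.72 to 0.83 and from 0.72 to 0.82. The potassium decrease was less firm. It lost its call when arrays were scaled to the median of all probe sets (-0.25, adjusted p = 0.27) and without preparation 1 (-0.30, adjusted p = 0.12), and the Ang II call of the dimmer probe set also ended without preparation 1 (adjusted p = 0.09). The probe sets correlated at r = 0.96 with preparation means subtracted (n = 9).

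**Figure D2:**
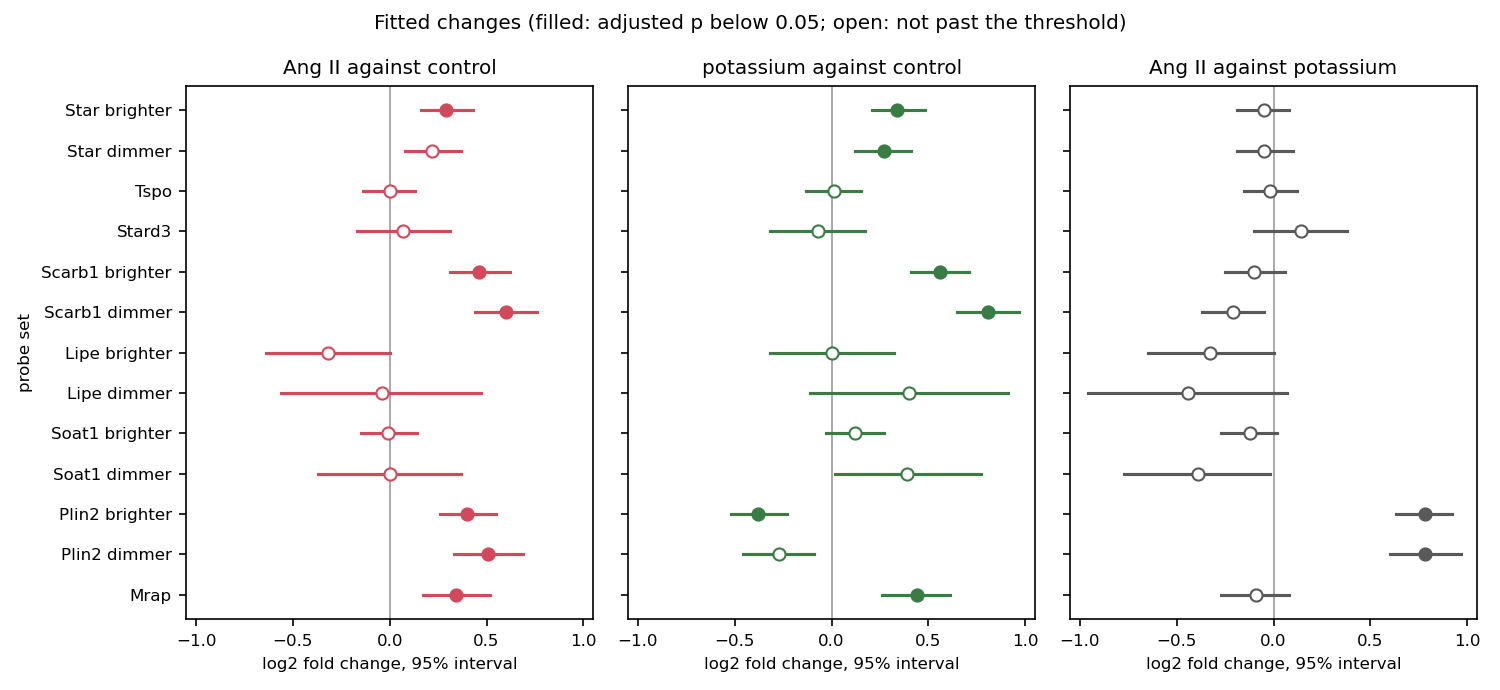
Fitted log2 fold change (horizontal axes) of the 13 probe sets in the 3 comparisons, with unadjusted 95% intervals and filled points for an adjusted p below 0.05. Scarb1 points lie farthest to the right after potassium (0.56 and 0.81), and the Plin2 probe sets are the only filled points in Ang II against potassium (0.78 each).

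Promoter sequence from RefSeq (assembly GRCr8) was held for 3 of the 8 genes, Plin2, Soat1 and Stard3. The 250 bases before the start site of each are shown 5′ to 3′, to set the gene that moved in opposite directions beside a pair that passed no test. For Plin2, which has 2 windows, the more upstream start site is given. Capitals mark the motifs found. The windows lie at chr5:106229019-106229268 (Plin2, minus strand), chr13:71147673-71147922 (Soat1, minus strand) and chr10:83853473-83853722 (Stard3, plus strand).
Plin2: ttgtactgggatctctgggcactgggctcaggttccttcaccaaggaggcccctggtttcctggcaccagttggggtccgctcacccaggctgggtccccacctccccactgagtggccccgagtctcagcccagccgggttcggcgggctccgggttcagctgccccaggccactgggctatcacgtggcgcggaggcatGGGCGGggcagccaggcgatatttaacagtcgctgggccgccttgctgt
Soat1: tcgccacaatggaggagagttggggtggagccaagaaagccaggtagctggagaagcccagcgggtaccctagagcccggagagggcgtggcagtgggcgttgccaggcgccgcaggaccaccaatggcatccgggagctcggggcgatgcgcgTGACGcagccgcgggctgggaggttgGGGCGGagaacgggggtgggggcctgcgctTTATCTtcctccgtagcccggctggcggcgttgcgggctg
Stard3: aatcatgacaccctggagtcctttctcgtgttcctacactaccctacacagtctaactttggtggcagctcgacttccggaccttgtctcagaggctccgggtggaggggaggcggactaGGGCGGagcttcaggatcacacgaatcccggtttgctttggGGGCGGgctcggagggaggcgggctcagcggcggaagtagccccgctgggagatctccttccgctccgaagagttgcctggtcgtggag

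Both strands were searched for 9 motifs that known regulators of steroid-producing cells bind. These were the nuclear receptor motif AGGTCA, the SF-1 site CAAGGTCA and the Nr4a site AAAGGTCA (both of which contain it), the cyclic AMP response element TGACGTCA and its core TGACG, the AP-1 site TGANTCA, the GATA site AGATAA, the sterol regulatory element TCACNCCAC and the GC box GGGCGG. The Plin2 window shown held a GC box at position -49 from the start site and none of the other 8. The Plin2 window that is not shown held none of the 9 motifs. The Soat1 window held a TGACG at -96, a GC box at -70 and a GATA site at -40, and the Stard3 window GC boxes at -130 and -89. Among 33469 windows of that length, 30.5% held GGGCGG, 18.2% TGACG, 10.3% AGATAA and 14.1% AGGTCA. A match describes the letters of the window and not a bound site.

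Soat1 encodes the enzyme that esterifies cholesterol for storage. Its brighter probe set (1374976_a_at) had signals of 8525, 6402 and 5725 in control, 7672, 6398 and 6292 after Ang II, and 8335, 7329 and 6556 after potassium. The groups overlapped, and the spread between preparations was wider than any difference between conditions. The change was -0.01 ± 0.07 after Ang II (95% interval -0.15 to 0.14) and 0.12 ± 0.07 after potassium (-0.03 to 0.27). The dimmer probe set (1369002_at) was more variable, with control signals of 671 to 1295, and differed from control by 0.00 ± 0.17 and 0.39 ± 0.17 (adjusted p = 1 and 0.24). Its potassium value passed the test only without preparation 3 (0.70, adjusted p = 0.034).

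Lipe encodes hormone-sensitive lipase, which in steroid-producing cells frees cholesterol from droplet esters. Its brighter probe set (1387132_at) had signals of 477 to 619 in control, 363 to 489 after Ang II and 380 to 665 after potassium, and the dimmer (1382465_at) 197 to 371, 163 to 381 and 282 to 417. The probe sets did not run together (r = -0.02 with preparation means subtracted, n = 9). The brighter differed from control by -0.32 ± 0.15 after Ang II, with an unadjusted p of 0.048 and an adjusted p of 0.34, and was lower in all 3 preparations. After potassium the values were 0.00 ± 0.15 at the brighter and 0.40 ± 0.24 at the dimmer probe set, and the latter passed only without potassium replicate 2 (0.81, adjusted p = 0.039). The direct comparison at the dimmer probe set passed only without potassium replicate 2 (-0.85, adjusted p = 0.03) or without preparation 2 (-0.87, adjusted p = 0.035). After potassium the 95% interval at the dimmer probe set was -0.11 to 0.91, so changes of the size seen for Scarb1 could not be told from none. After Ang II it was -0.56 to 0.47, which held the change of the brighter Scarb1 probe set (0.46) and not that of the dimmer (0.60).

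The other genes of the store were read from a list of 24, of which 20 were tested, Plin2, Lipe and Soat1 included. After Ang II 2 rose and 1 fell, and after potassium 1 rose and 1 fell (median change -0.06 and 0.00, against -0.03 and -0.02 over all tested probe sets). Of all tested probe sets 2.2% changed after Ang II and 5.36% after potassium. Dgat1, which makes the triglyceride of lipid droplets, had the largest change. Its signals were 1154, 933 and 1133 in control, 1139, 962 and 1084 after Ang II, and 2103, 2149 and 2362 after potassium. Dgat1 rose 2.05-fold after potassium (1.03 ± 0.09, adjusted p = 3.3e-06), differed by -0.01 ± 0.09 after Ang II, and was lower after Ang II than after potassium in the direct test (-1.04 ± 0.09, adjusted p = 5.9e-06).

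Acsl3 and Lipa changed after Ang II. Acsl3, an acyl-CoA synthetase found on growing droplets, had signals of 1138, 1105 and 920 in control and 1454, 1520 and 1500 after Ang II, a rise of 0.50 ± 0.10 (adjusted p = 0.012). After potassium it had a change of 0.22 ± 0.10 (adjusted p = 0.24). The direct comparison at Acsl3 did not pass (0.28 ± 0.10, adjusted p = 0.15). Lipa, the lysosomal acid lipase that opens esters brought in with lipoproteins, fell from 5689, 4511 and 5596 to 4596, 3744 and 4066 (-0.34 ± 0.07, adjusted p = 0.012). Its value after potassium was -0.01 ± 0.07, and the direct comparison of Ang II with potassium passed the test (-0.34 ± 0.07, adjusted p = 0.0078). The calls of Acsl3 and Lipa after Ang II held in 17 and 15 of the 23 alternative settings. Adipocytes are rich in these transcripts, and of 8 measured adipocyte markers 7 were too dim to be tested, Adipoq, Plin1 and Lep among them. The summed signal of the 8 was 403 to 647 in control, 431 to 620 after Ang II and 440 to 600 after potassium. Macrophages also carry droplets, and the summed signal of 10 macrophage markers was 10363 to 14288, 10683 to 13815 and 9008 to 13610. The part of either cell type in the changes of Plin2, Dgat1, Acsl3 and Lipa was not tested.

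Of 11 tested genes of lipoprotein uptake and cholesterol efflux, Scarb1 included, 1 rose after Ang II, Scarb1 itself, where 2.2% of all tested probe sets changed. After potassium 2 rose and 1 fell, where 5.36% of all tested probe sets changed. Mylip, a ubiquitin ligase gene, rose by 0.37 ± 0.09 (adjusted p = 0.033), and Vldlr, a lipoprotein receptor gene, fell (-0.56 ± 0.13, adjusted p = 0.023). These calls held in 13 and 14 of the 23 alternative settings. The other 3 probe sets of Vldlr had changes of -0.46 ± 0.12, -0.76 ± 0.16 and -0.37 ± 0.21 after potassium (adjusted p = 0.043, 0.011 and 0.37). Abca1, which exports cholesterol from the cell, had 4 probe sets. The brightest, which stands for the gene in the count, had changes of 0.12 ± 0.07 and 0.20 ± 0.07 and did not pass, while the other 3 rose after potassium by 0.43 ± 0.08, 0.61 ± 0.14 and 0.45 ± 0.11 (adjusted p = 0.0055, 0.018 and 0.029). Npc1 was not analysed here.

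Of 19 tested genes of cholesterol transport between organelles, Stard3 included, none changed after either stimulus in limma's test. Of all tested probe sets 2.2% changed after Ang II and 5.36% after potassium. At an unadjusted p below 0.05, 1 was higher and 3 lower after Ang II, and 2 were higher and 3 lower after potassium. Over all tested probe sets, 2694 of 18625 had such a p after Ang II. After potassium the number was 2557 without the replicate block and 3125 with no trend of the variance. In the direct comparison Gramd2b was higher after Ang II than after potassium (0.49 ± 0.11, adjusted p = 0.02) and Stard10 lower (-0.40 ± 0.10, adjusted p = 0.022), calls that held in 13 and 14 of the 23 alternative settings. Dimmer probe sets of Gramd2b and Stard10 did not pass.

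In the mitochondrial list, Star was the 1 gene of 18 tested that passed, upward under both stimuli. Of all tested probe sets 2.2% changed after Ang II and 5.36% after potassium. Cyp11a1, the enzyme that receives the cholesterol, had changes of -0.01 ± 0.06 and -0.06 ± 0.06, and its electron donor gene Fdx1 0.09 ± 0.07 and 0.01 ± 0.07. Of later enzymes, Hsd3b1 had 0.00 ± 0.06 and -0.02 ± 0.06, Cyp21a1 -0.09 ± 0.06 and -0.02 ± 0.06, and Cyp11b1 0.08 ± 0.11 and 0.29 ± 0.11 (adjusted p = 0.81 and 0.16). None of the 8 tested genes of later steroid synthesis passed against control in limma's test, where 1 after Ang II and 2 after potassium had an unadjusted p below 0.05. Such a p was found for 2694 of all 18625 tested probe sets after Ang II. After potassium it was found for 2557 without the replicate block and for 3125 with no trend of the variance. Por, which supplies electrons to microsomal cytochromes P450, was higher after Ang II than after potassium (0.37 ± 0.08, adjusted p = 0.0098), which held in 16 of the 23 settings, and its dimmer probe set had 0.25 ± 0.13 (adjusted p = 0.34).

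Of 19 tested genes of the ACTH receptor and cyclic AMP signalling, 2 rose after Ang II and 3 after potassium, and none fell. Mrap itself is in both counts. Over all tested probe sets 1.66% and 2.78% rose. Crem, a cyclic AMP responsive factor whose inducible form represses transcription, rose by 0.45 ± 0.08 and 0.69 ± 0.08 (adjusted p = 0.0077 and 1.2e-04) at the brightest of its 6 probe sets. The direct comparison did not pass there (-0.23 ± 0.08, adjusted p = 0.16). Of the others, 4 rose after potassium by 1.22 to 1.35, and were lower after Ang II than after potassium (-1.12 to -0.50, all past the threshold). After Ang II these 4 had changes of 0.58, 0.11, 0.57 and 0.76, of which 0.11 did not pass (adjusted p = 0.73). The 1 left passed in no comparison. Prkar2b, a regulatory subunit of protein kinase A, rose after potassium by 0.27 ± 0.07 (adjusted p = 0.036), a call that held in 10 of the 23 settings, and was lower after Ang II than after potassium (-0.35 ± 0.07, adjusted p = 0.0083). The ACTH receptor gene Mc2r was not analysed here.

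A list of 40 transcription factors and cofactors known to act on Star or on steroid-producing cells had 38 tested members, of which 10 rose and none fell after Ang II, and 11 rose and 3 fell after potassium. Of all tested probe sets 1.66% rose and 0.532% fell after Ang II, and 2.78% rose and 2.58% fell after potassium. The list was drawn up with these changes in part known, so its counts are a description. Giot1, a zinc-finger repressor of steroid-producing cells, rose by 2.01 ± 0.10 and 2.12 ± 0.10, and the orphan nuclear receptor Nr4a1 by 0.80 ± 0.11 and 0.82 ± 0.11. Nr4a2 (0.79 ± 0.14 and 1.94 ± 0.14), Nr4a3 (0.58 ± 0.09 and 1.14 ± 0.09), Junb (0.46 ± 0.08 and 1.11 ± 0.08) and the kinase gene Sik1 (0.97 ± 0.14 and 1.78 ± 0.14) rose after both, and the last 4 were lower after Ang II than after potassium in the direct test. The dimmest Nr4a3 probe set and the dimmer one of Sik1 passed after potassium. They did not pass after Ang II (adjusted p = 0.1 and 0.12) or in the direct test (adjusted p = 0.12 and 0.1). Egr1 and Fosl1, like Plin2, were higher after Ang II than after potassium (0.65 ± 0.06 and 1.59 ± 0.10). Egr1 rose after Ang II by 0.41 ± 0.06 and fell after potassium (-0.24 ± 0.06, adjusted p = 0.029), the latter a call that held in 9 of the 23 alternative settings. Fosl1 had a change of 0.39 ± 0.10 after Ang II that did not pass (adjusted p = 0.059) and fell after potassium (-1.19 ± 0.10, adjusted p = 2.5e-06). The steroidogenic regulators Nr5a1 (-0.07 ± 0.08 and 0.17 ± 0.08 at its brighter probe set) and Nr0b1 (-0.05 ± 0.08 and 0.05 ± 0.08) did not pass the test.

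**Figure D3:**
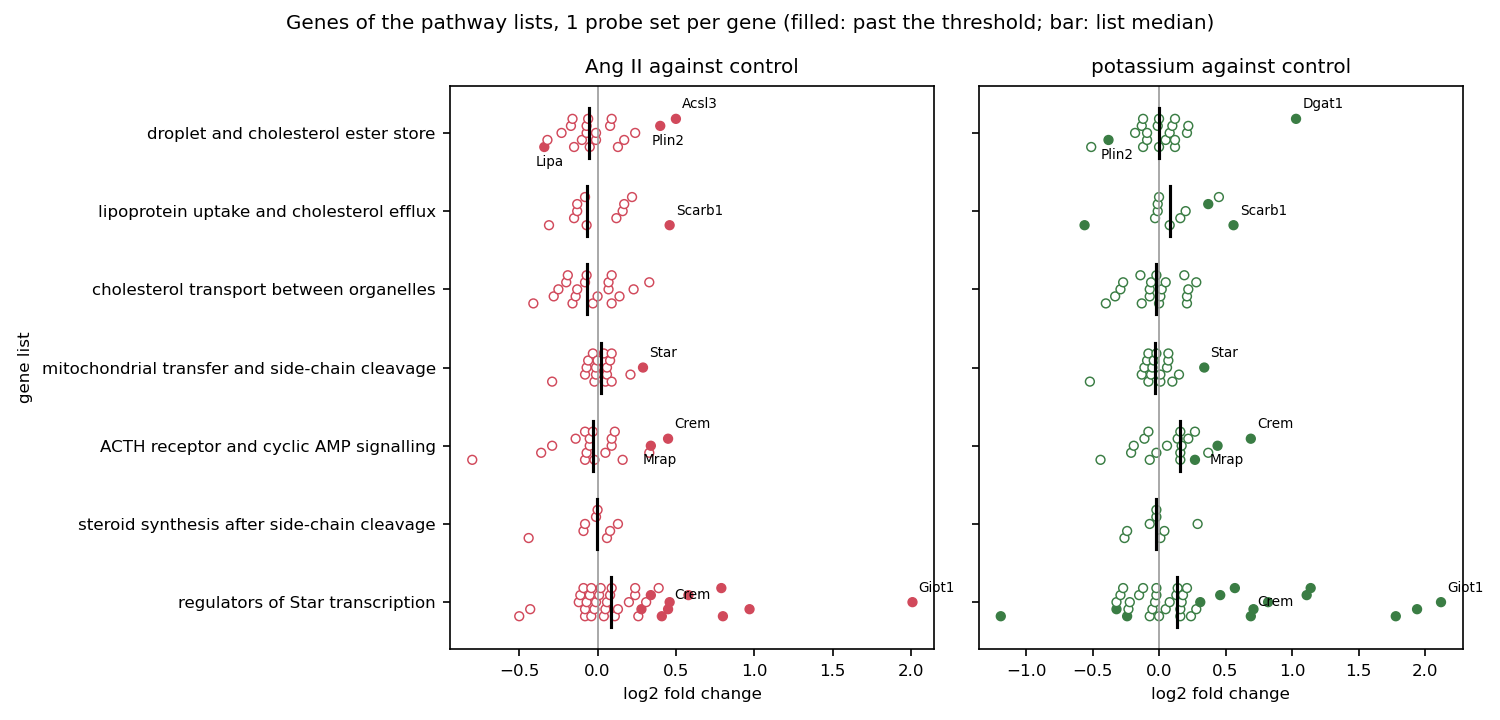
Log2 fold change (horizontal axes) of each tested gene of the 7 pathway lists after Ang II (left) and potassium (right), 1 probe set per gene, with filled points past the threshold and a bar at each list's median. Star, Scarb1 and Mrap stand to the right in both panels, Plin2 changes side, and Dgat1 (1.03) stands apart after potassium.

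Genes whose signal followed Star and Scarb1 most closely were ranked by Pearson's r over the 9 arrays, with preparation means subtracted and 1 probe set for each of 10398 other genes. Nearest to Star was Scarb1 (r = 0.983), followed by Ints9 (0.977), the transcription factor Nfil3 (0.977), Pcdh17 (0.976) and Pbk (0.974). Nearest to Scarb1 were the small GTP-binding protein gene Gem (0.989), Ints9 (0.987), Giot1 (0.984), Tcim (0.984) and Lpar1 (0.984). The arrays share preparation, scaling and condition, and any gene moved alike by both stimuli scores high, so these values describe the ranking and are not tested. Of the 5 genes nearest to Star, Scarb1, Ints9 and Nfil3 rose after both stimuli. Pcdh17 and Pbk passed in neither. Of the 5 nearest to Scarb1, Gem, Ints9, Giot1 and Tcim rose after both, and Lpar1 after potassium (0.35 ± 0.08, adjusted p = 0.017). The same ranking for Plin2 was added after its values had been seen, and it placed Cebpz (0.992), Pex11a (0.989) and Nudt11 (0.989) first. Among them Pex11a, a peroxisome membrane protein gene, rose after Ang II (0.87 ± 0.12, adjusted p = 9.5e-04) and fell after potassium (-0.48 ± 0.12, adjusted p = 0.033). The others of the 5 nearest, Cebpz, Nudt11, Wdr26 and Reln, passed against control after neither stimulus (adjusted p from 0.098 to 0.31).

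**Figure D4:**
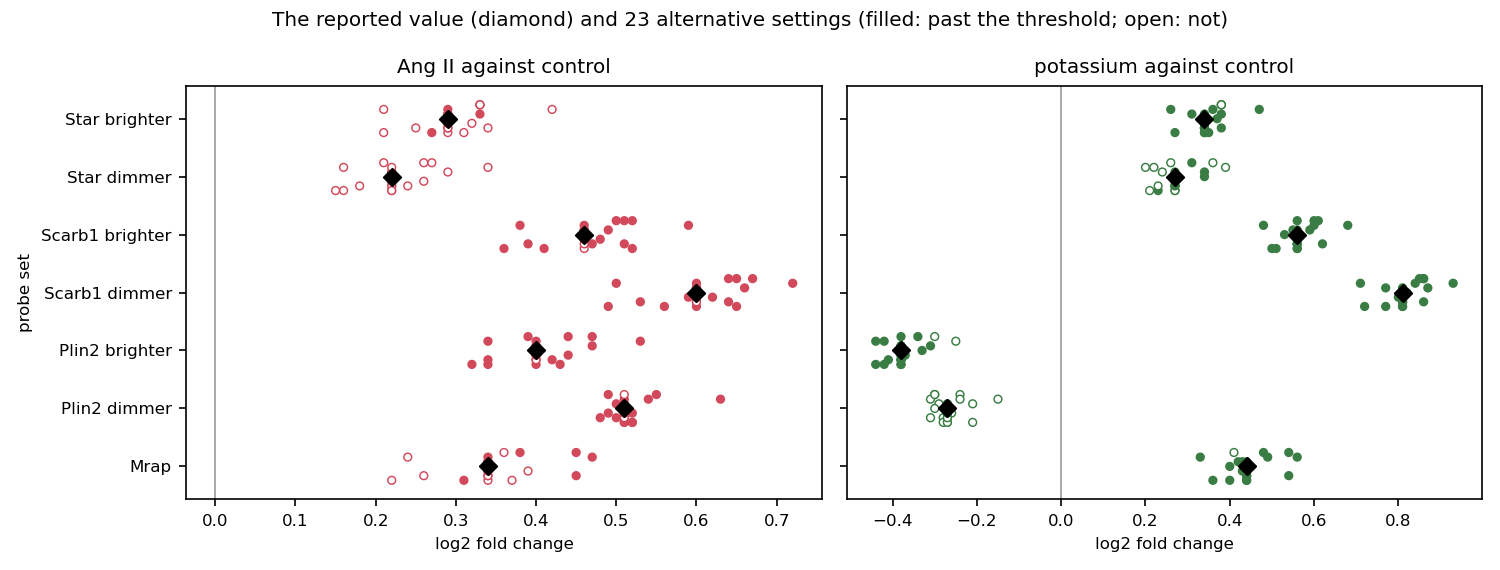
Log2 fold change (horizontal axes) of the 7 probe sets of Star, Scarb1, Plin2 and Mrap as reported (diamonds) and under 23 alternative settings (circles, filled where past the threshold). All values keep their side of 0, while open circles are most frequent for Star and Mrap after Ang II and for the dimmer probe sets of Star and Plin2 after potassium.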

How the data were processed

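Each array gave 1 intensity per probe set, which the authors deposited on a linear scale. GCOS is named in the submitters' processing notes, and its background and summary method is not given in the sources used here. No further scaling was applied. Of 31099 probe sets, 57 controls were left out, and 20826 of the other 31042 had 1 gene symbol, after updating through Entrez identifiers to RefSeq names. limma 3.58.1 (R 4.3.3) was fitted to log2(intensity + 16) with group and preparation as terms and a variance trend, over the 18625 probe sets whose mean lay above the 40th percentile. P-values were Benjamini-Hochberg adjusted over all of them at a threshold of 0.05.

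Preparations are numbered by the experiment number in the sample titles, and the series' design text gives 3 independent preparations with 1 tube per condition in each experiment. Arrays of 1 preparation deviated together from their group means (r from 0.09 to 0.27 over 9 pairs, against -0.21 to 0.05 over 18 other pairs). With several probe sets, the brightest stood for a gene in the lists. From each list, up to 4 genes past the threshold with the smallest p in each comparison were named, and Cyp11a1, Fdx1, Fdxr, Hsd3b1, Cyp21a1, Cyp11b1, Npc1, Abca1, Nr5a1, Nr0b1 and Mc2r whatever their result, Fdxr not being analysed here. A further item of this rule is not reported here. For Star and Scarb1 the 5 genes with the most similar pattern were named. Members and lists were chosen with earlier results of these data known. The fit was tested on simulated data, and 23 alternatives were run.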

Additional observations from a re-analysis of the deposited data

Results flagged for a closer look

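Plin2 stood out because its response to Ang II and its response to potassium differed in a direct test. Its brighter probe set was higher after Ang II than after potassium by 0.78 ± 0.07 on the log2 scale (adjusted p = 6.0e-06) and its dimmer one by 0.78 ± 0.09 (adjusted p = 5.1e-05). In each of the 3 preparations both probe sets were above control after Ang II and below it after potassium. With 3 arrays per group, single arrays were not screened as outliers.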

How the results depend on the processing

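No value of the 13 probe sets that passed the threshold changed sign. Of 897 single values under alternatives, 817 kept direction and side, 52 no longer passed, 4 newly passed and 24 changed sign without passing in either fit. Probe sets of the members past the threshold after Ang II numbered 3 without the replicate block and 0 with no trend, and 3 to 6 when arrays or preparations were left out (6 as reported). After potassium they numbered 4 without the block, 4 when scaled to the median of all probe sets and 1 with no trend, and 2 to 6 with arrays or preparations left out. Over all probe sets, counts were 197, 506 and 442 (Ang II, potassium, direct) without the replicate block, 38, 258 and 156 with no trend, and 143 to 454, 432 to 977 and 275 to 1012 with arrays or preparations left out. Scaled to the median of all probe sets, the direct count was 556. The cause of these changes was not tested. Signs changed among values that passed in no fit. With 1 array or 1 preparation left out, Stard3 ran from -0.03 to 0.19 or -0.04 to 0.23 after Ang II and from -0.14 to 0.05 or -0.14 to 0.02 after potassium, dimmer Lipe after Ang II from -0.28 to 0.21 or -0.11 to 0.06, and brighter Soat1 after Ang II from -0.06 to 0.07 or -0.08 to 0.07. Tspo ran from -0.05 to 0.06 or -0.02 to 0.05 after potassium and from -0.06 to 0.05 or -0.07 to 0.07 directly, and dimmer Star directly reached 0.01 without preparation 3. Scaled to the median of all probe sets, dimmer Lipe and brighter Soat1 after Ang II had 0.07 and 0.12, and Stard3 after potassium 0.05. Scaled to the median of tested probe sets, brighter Soat1 had 0.03, and with quantile scaling dimmer Lipe had 0.01 and Tspo after potassium -0.07. The number of arrays, 3 per group, limits the precision of these values.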
